A study of Homo sapiens with 20 samples.

Results

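The strong RUNX1 sites that lost at least 33% of their signal when PU.1 was lowered formed a set of 229 of 26642 peaks in a human monocytic leukemia line. They were selected on their own levels. Reads in each peak were scaled to 1000000 reads in all peaks of the same library (CPM), a peak was strong when its mean over the control libraries reached 80 CPM, and it was kept when the knockdown mean was at most 0.67 of the control mean. Of 2132 strong peaks, 229 (10.7%) met both limits, which is 0.86% of all peaks, while 60 strong peaks had a ratio of 1.49 or more, the inverse of that limit. Because control and knockdown levels chose the members, the fall itself and every count over all libraries are given as descriptions. The fall was tested only on sets of peaks chosen anew on 1 batch and read in the other, which overlap the members in part.

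RUNX1 is the DNA-binding subunit of core-binding factor, pairs with CBFβ, and binds the enhancers and promoters of many genes of blood cells. PU.1, the ETS-family factor encoded by SPI1, is required for the making of monocytes and macrophages and is known to open closed chromatin to other factors at myeloid enhancers. The pair is found at many of the same elements, where their short recognition sequences, TGTGGT for RUNX factors and GAGGAA for PU.1, can lie close together.

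THP-1, an established line from a human acute monocytic leukemia, carried a PU.1 shRNA (knockdown) or a scramble shRNA (control), and doxycycline was given to both, for some days before the experiment, to switch the cassette on. RUNX1 was immunoprecipitated in 6 libraries of each genotype, in 2 batches (3 control and 2 knockdown in batch 1, 3 control and 4 knockdown in batch 2), with independent immunoprecipitations and library preparations of the same lines according to the methods, so p-values measure the spread between such preparations and not between independently made lines. Whether each line was 1 clone is not given in the sources used here. The 8 samples made with IgG were not analysed here, and ChIP-seq does not measure the PU.1 transcript, so the knockdown could not be checked in these libraries. The study's appendix shows a Western blot for PU.1 in THP-1 cells with the knockdown or the control shRNA. The control libraries had 630247 to 1199004 reads in peaks and the knockdown libraries 938745 to 1719840.

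Where a member covered a promoter, the sequence could be set beside its level. RefSeq promoter windows of GRCh38.p14, from 250 bases before to 50 after a transcription start, lay wholly or partly in 33 members, as 51 windows of 39 genes. The letters TGTGGT, on either strand, stood in 11.8% of the 51 windows, against 14.8% of 1132 windows over the other strong peaks and 11.3% of all 22199 windows. GAGGAA stood in 25.5%, against 31.3% and 27.9%. The longer GAGGAAGT, a form that contains GAGGAA and was searched after the values were seen, stood in 5 windows (9.8%), against 2.56% and 2.64%. Counted by peak, 4 of 33 members (12.1%) with a window and 26 of 707 other strong peaks (3.68%) held the longer letters. TTGCNNAA, a form bound by C/EBP factors, stood in 11.8% of members' windows, 6.45% of those of other strong peaks and 8.69% of all windows. Counted by peak, it stood in 18.2% of members and 8.91% of other strong peaks. The same count gave 15.2% and 19.5% for TGTGGT, and 30.3% and 39.2% for GAGGAA. These are small counts, neighbouring windows overlap, and a match is not a measured site.

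The 4 members with GAGGAAGT covered the promoters of LST1, CD1A, CFAP53 and PSMB8. Their windows are printed because each lies in a weakened peak and carries the long PU.1-type letters. LST1 had 2 such windows in the same peak, and the first is shown. They read 5′ to 3′ on the strand of the gene, and the capitals mark the RUNX letters, the short PU.1 letters and the longer form on either strand. LST1 is on the plus strand at chr6:31586027-31586326, CD1A on the plus strand at chr1:158248086-158248385, CFAP53 on the minus strand at chr18:50266446-50266745 and PSMB8 on the minus strand at chr6:32843998-32844297.
LST1: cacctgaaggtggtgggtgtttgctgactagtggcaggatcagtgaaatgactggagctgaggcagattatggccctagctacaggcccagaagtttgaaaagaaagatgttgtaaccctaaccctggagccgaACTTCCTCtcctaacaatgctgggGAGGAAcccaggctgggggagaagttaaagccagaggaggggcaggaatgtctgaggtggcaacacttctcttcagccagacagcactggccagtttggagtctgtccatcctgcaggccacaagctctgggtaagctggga
CD1A: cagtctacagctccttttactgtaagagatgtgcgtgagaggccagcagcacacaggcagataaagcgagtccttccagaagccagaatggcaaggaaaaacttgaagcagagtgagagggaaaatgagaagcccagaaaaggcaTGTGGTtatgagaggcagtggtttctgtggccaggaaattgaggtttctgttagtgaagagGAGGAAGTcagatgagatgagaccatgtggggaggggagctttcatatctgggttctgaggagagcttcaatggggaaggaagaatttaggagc
CFAP53: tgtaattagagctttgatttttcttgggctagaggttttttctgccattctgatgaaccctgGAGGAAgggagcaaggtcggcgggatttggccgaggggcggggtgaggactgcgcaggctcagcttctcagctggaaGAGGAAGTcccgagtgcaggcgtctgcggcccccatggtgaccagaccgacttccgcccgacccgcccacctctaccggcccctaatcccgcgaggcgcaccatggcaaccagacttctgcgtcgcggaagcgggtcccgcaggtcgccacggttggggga
PSMB8: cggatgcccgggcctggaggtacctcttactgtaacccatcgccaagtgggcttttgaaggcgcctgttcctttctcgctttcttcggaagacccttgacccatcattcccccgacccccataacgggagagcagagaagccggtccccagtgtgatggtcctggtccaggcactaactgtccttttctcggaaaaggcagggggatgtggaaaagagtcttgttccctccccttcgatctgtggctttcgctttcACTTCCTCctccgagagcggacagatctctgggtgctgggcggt

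CD1A, which presents lipid antigens to T cells, had the highest control level of the 4, and its window also held TGTGGT. Its peak ranged over 194, 217 and 244 CPM (lowest, median and highest of 6 control libraries) and 106, 112 and 134 CPM in knockdown. At LST1, a leukocyte-specific transcript of the major histocompatibility region, control libraries had 86.1, 92.2 and 114 CPM and knockdown libraries 29.8, 37.5 and 61.3 CPM. At both of these promoters the groups did not overlap. At PSMB8, a subunit of the immunoproteasome that starts beside the peptide transporter gene TAP1, the levels were 125, 146 and 164 CPM in control and 61.8, 95.7 and 108 CPM in knockdown. CFAP53, a cilium gene whose window lies beside MBD1, was the weakest of the 4, at 58.4, 80.1 and 105 CPM in control and 36.5, 43.6 and 59.7 CPM in knockdown, and there the groups overlapped.

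RUNX1 reads fell at these sites, and some remained at each. No IgG background was taken off, so the levels kept, called residual binding below, are read levels. How much of what remained was binding was not tested. The median member kept 58.0% of its control level (quartiles 48.6% and 63.2%, lowest 13.1%, highest 67.0%). At 5 members 25% or less was left, 61 lay between 0.25 and 0.5, 73 between 0.5 and 0.6 and 90 between 0.6 and 0.67. Mean control levels ran from 80 CPM over a median of 97.4 to 265 CPM, and mean knockdown levels from 11 over 55.5 to 158 CPM. The typical peak of the whole set had 28.6 CPM in control and 28.0 in knockdown, so 215 members still stood at or above the median of all knockdown peaks, 14 stood below it, and 35 remained at 80 CPM or more. Together the 229 peaks held 2.52% ± 0.0372 of in-peak reads in control (SD, n = 6) and 1.36% ± 0.0149 in knockdown (n = 6). A member received 35 to 343 reads per control library and 4 to 294 per knockdown library.

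**Figure D1:**
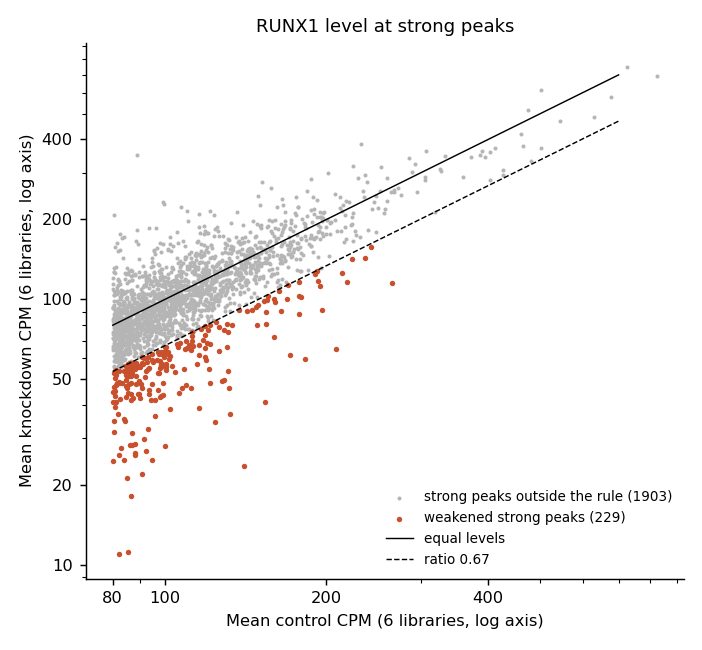
Mean RUNX1 level of each strong peak in control (horizontal) and knockdown (vertical), in CPM on log axes, with 229 members in red and 1903 other strong peaks in grey. The members lie below the dashed line of ratio 0.67 by construction and reach down to 11 CPM, and most other strong peaks lie along the solid line of equal levels.

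The members thus lay at the lower edge of one continuous cloud, and the limits cut through it. Just inside the control limit stood peaks in DDX46 (80 CPM, ratio 0.51) and SYN2 (80.2 CPM, ratio 0.56). Just outside it stood a peak near HLX, a homeobox gene of blood cells (79.8 CPM, ratio 0.31), and one near ZC3H3 (79.7 CPM, ratio 0.59). Just inside the ratio limit were peaks at DYNC2H1 and at PTGER4, a receptor for prostaglandin E2 (both 0.67 after rounding). The nearest outside it were a peak near RLF on chromosome 1 (0.6703) and one far from MRPL39 on chromosome 21 (0.6717).

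In the fit over all libraries with batch as a covariate (DESeq2, Benjamini-Hochberg adjusted p under 0.05 and fold over 1.1), 20.7% of all peaks were called lost and 21.3% gained, and 227 of the 229 members were called lost. The rule used this same contrast, so the count only shows that the ratio limit and the fit pick the same direction. Of the 1903 other strong peaks, 381 (20%) were called lost and 243 (12.8%) gained. Every knockdown library lay below every control library at 189 members (82.5%), and at 10.8% of all peaks. The 2 members that were not called lie in C15orf39 and at MOB3A. At C15orf39 control libraries had 60, 71.1 and 184 CPM and knockdown libraries 33.1, 51.6 and 89.4 CPM. The values at MOB3A were 55.5, 89.6 and 184 CPM against 17.8, 64.3 and 104 CPM. At both, 1 control library (replicate 1) supplied the highest value.

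The choice was then repeated on 1 batch and read in the libraries of the other, which is independent of the choice apart from the shared cell lines and peak set. Batch 1 alone gave 256 peaks with 80 CPM or more in control and a ratio of at most 0.67. In batch 2, 205 of these (80.1%) were called lost and 0 gained (DESeq2, adjusted p under 0.05 over all peaks), while 13.1% of all peaks and 8.53% of the 1993 other strong peaks were called lost there. Their median ratio was 0.576 in batch 1 and 0.604 in batch 2, and 254 of 256 lay below 1. Batch 2 alone gave 243 peaks, of which 145 (59.7%) were called lost in batch 1, against 6.61% of all peaks and 2.38% of 1809 other strong peaks. The latter count rested on few libraries: it was 82 and 76 without control replicate 2 or 3, where 7 other strong peaks (0.387%) were called in each fit. Leaving out knockdown replicate 1 or 2 leaves 1 knockdown library, whose spread is assumed to be that of the others. Those fits called fewer peaks still, among the chosen and among the other strong peaks. Both batches chose 137 of the same peaks.

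**Figure D2:**
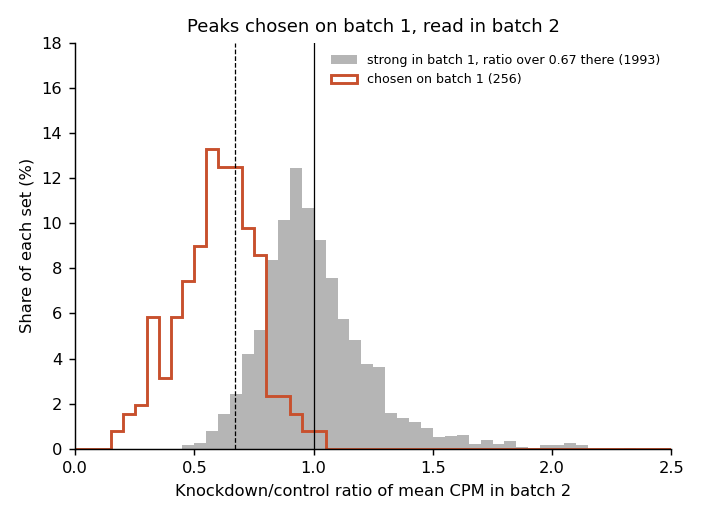
Knockdown to control ratio of mean CPM in batch 2 (horizontal), as a share of each set in percent (vertical), for the 256 peaks chosen on batch 1 (red outline) and 1993 strong peaks not chosen there (grey). The solid line marks 1 and the dashed line 0.67. The chosen peaks centre on 0.604 and nearly all lie left of 1, and 2 grey peaks lie beyond the axis end at 2.5.

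Of the 256 peaks chosen on batch 1, the 5 with the lowest ratio there were called lost in the libraries of batch 2. In FAM81A the mean fell from 67.8 ± 9.34 CPM (SD, n = 3) to 10.3 ± 5.09 CPM (n = 4), which is -2.70 ± 0.30 on the log2 scale (SE; DESeq2, adjusted p = 1.5e-16). In CD48, which encodes a lipid-anchored receptor of the SLAM family on leukocytes, it fell from 140 ± 6.86 to 25.1 ± 2.06 CPM (-2.47 ± 0.19, DESeq2 adjusted p = 7.7e-33). The AKAP13 peak, in a gene for an anchoring protein of protein kinase A, went from 90.1 ± 11.4 to 20 ± 4.42 CPM (-2.17 ± 0.23, DESeq2 adjusted p = 2.3e-17). No knockdown library of batch 2 came near a control library at these 3 peaks. The peak 20678 bp from FGD2, an activator of CDC42, changed by -1.87 ± 0.22 on the log2 scale (DESeq2, adjusted p = 1.8e-14). For a peak near ADGB, an unusual globin, the value was -1.57 ± 0.24 (DESeq2 adjusted p = 5e-09).

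Split by batch, the members had a median ratio of 0.569 in batch 1 (0.128 to 0.805) and 0.572 in batch 2 (0.12 to 0.795), and 190 and 201 of them met the ratio limit in the respective batch. The rule used the libraries of both batches, so these values are a description and do not show how alike the batches were. For the same reason the counts for the product of genotype and batch are given without a reading. With DESeq2, 8 members (3.49%) had an unadjusted p under 0.05, as had 2.51% of all peaks. With edgeR the counts were 19 of 229 members, 121 of 1903 other strong peaks and 1424 of all 26642 peaks. Of the members, 0 passed an adjusted p of 0.05 with either tool.

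The deepest losses lay in and around genes of immune and other cells. In CD48 a pair of members, 2 of the 3 lowest ratios, stood within 2.015 kb of sequence, at chr1:160703853-160704686 and chr1:160705013-160705868. Both also overlap the gene model LOC124904439. The first went from 56.3, 86.3 and 110 CPM in control to 8.44, 11.3 and 14.9 CPM in knockdown (13.1% kept). The second had 115, 144 and 157 CPM in control and 17.4, 24.6 and 26.7 CPM in knockdown (16.8% kept). Knockdown levels at both peaks were thus under the median of all peaks in that condition, from a strong start. FAM81A (chr15:59399196-59400110) kept 13.3%, with 57.1, 82.3 and 106 CPM against 4.26, 11.9 and 16.1 CPM. AKAP13 kept 21.1%, MLIP, a gene for a lamin-interacting muscle protein, 24.2%, and a site 286247 bp from MRPL39, the nearest protein-coding gene, 25%. FCRL4, an Fc receptor-like gene of B cells, had a strong start at 140, 155 and 163 CPM and kept 26.7%.

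**Figure D3:**
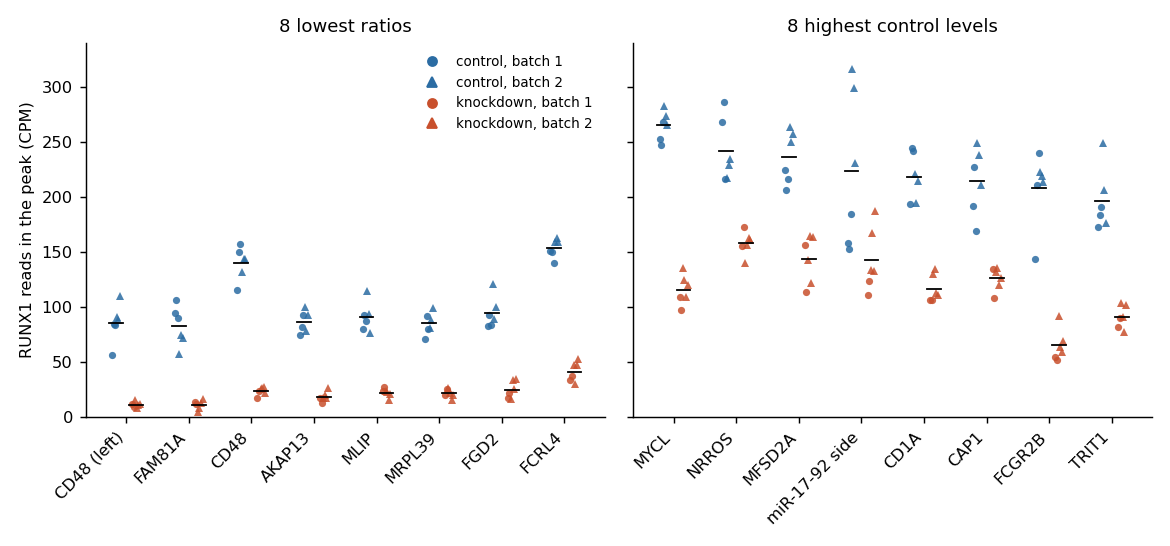
RUNX1 reads per library in CPM (vertical) at the 8 members with the lowest ratio (left) and the 8 with the highest mean control level (right), with control libraries in blue, knockdown libraries in red, circles for batch 1, triangles for batch 2 and black bars for the means. On the left the knockdown libraries lie at 52.7 CPM or less, and on the right most knockdown libraries stay above 90 CPM, with overlap of the groups only at the site beside miR-17-92.

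Further members with low ratios, picked out after the values were seen for genes of known function, lay away from gene ends. A peak 18837 bp from TNFAIP3, which encodes the NF-κB inhibitor A20, had 73.0, 89.8 and 99.1 CPM in control and 19.8, 24.5 and 36.5 CPM in knockdown (29.4% kept). A site 22232 bp from PDCD1LG2, which encodes the checkpoint ligand PD-L2, kept 29.6%, with knockdown libraries between 16.6 and 34.0 CPM. A site 31389 bp from IL12B, the shared subunit of interleukins 12 and 23, kept 34.9%. The lipid kinase gene PIP4K2A had a member at 8423 bp that went from 93.6, 118 and 167 CPM to 30.9, 35.6 and 37.2 CPM. At each of these 4 sites every knockdown library was below every control library.

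The Fc receptor cluster on chromosome 1 held a pair of members of near-equal size and level. Inside FCGR2B, the inhibitory receptor for IgG, control libraries had 143, 216 and 239 CPM and knockdown libraries 51.7, 61.3 and 91.6 CPM (31.2% kept). The peak 25688 bp from FCGR3A, which encodes the activating receptor CD16a, had 135, 188 and 204 CPM and 44.8, 58.5 and 86.3 CPM (32.6% kept). The peaks start 81824 bp apart in a region known to hold near-identical duplicated segments, so reads could have been placed at either copy, and the values are not independent and uncertain for each site.

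At the other end stood sites that were strong before and after. The strongest member in control, 4540 bp from MYCL, a MYC-family gene, at chr1:39889944-39890888, had 247, 267 and 282 CPM in control and 97.3, 114 and 135 CPM in knockdown (43.7% kept). Even its lowest knockdown library exceeded the control limit. This MYCL peak lies in a stretch, described below, whose 96 peaks had a median control level of 101 CPM, against 28.6 CPM over all peaks. The peak 5158 bp from NRROS, which controls reactive oxygen and TGF-β1 activation in phagocytes, had 217, 232 and 286 CPM and kept 65.2%, which left the highest knockdown mean of any member, 158 CPM. Over all 229 members the Spearman correlation of the ratio with the control level was 0.04, a description over peaks of the same libraries. The correlation was 0.31 with peak width and -0.26 with control signal per kb, which uses the control level that also sets the ratio.

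A site on chromosome 13, 52265 bp from the nearest protein-coding gene GPC5, lies 4249 bp before the first hairpin of the miR-17-92 cluster, a polycistron of microRNAs known for its part in blood cancers. It spans chr13:91341394-91346356. Control libraries had 153, 208 and 316 CPM and knockdown libraries 111, 133 and 187 CPM (63.7% kept). The groups overlapped, and the higher 3 control values were the 3 libraries of batch 2. The mature miRNAs that follow it are printed from RefSeq with the seed, bases 2 to 8, in capitals, to show what the cluster encodes. The seed of miR-17-5p is that of miR-20a-5p, and the seed of miR-19a-3p is that of miR-19b-3p.
hsa-miR-17-5p: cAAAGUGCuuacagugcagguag
hsa-miR-18a-5p: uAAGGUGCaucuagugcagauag
hsa-miR-19a-3p: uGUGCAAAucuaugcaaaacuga
hsa-miR-20a-5p: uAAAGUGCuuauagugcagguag
hsa-miR-19b-3p: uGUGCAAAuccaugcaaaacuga
hsa-miR-92a-3p: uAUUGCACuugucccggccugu

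One member lay close to the gene of PU.1 itself. At chr11:47394289-47395655, 15742 bp from SPI1 and 11621 bp from the nearer SLC39A13, control libraries had 52.6, 83.6 and 139 CPM and knockdown libraries 39.4, 43.2 and 51.0 CPM (ratio 0.49). Every knockdown library was below every control library there. On chromosome 8, a member at chr8:129590195-129592751, between genes and 1847244 bp from MYC, went from 73.4, 84.8 and 97.6 CPM to 38.4, 41.4 and 49.3 CPM (ratio 0.51). Both were picked out for their position after the values were seen.

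By position, 56 members (24.5%, 95% Wilson interval 19.3% to 30.4%) stood at most 1 kb from either end of a gene that codes for protein, against 44.4% (42.2% to 46.6%) of the other strong peaks and 24.4% of all peaks. The intervals cover counting error only, neighbouring peaks are not independent, and the difference was not tested further. A further 85 members (37.1%) lay deeper inside a gene, 60 (26.2%) between genes within 50 kb and 28 (12.2%) farther out, against 29.6%, 17.3% and 8.67% of the other strong peaks. Strand was known for 39 of the members at gene ends, and 36 of them (92.3%) were at the 5′ end, near the 91.1% of other strong peaks and 87.8% of all peaks. Members had a median width of 1308 bp, other strong peaks 1737 bp and all peaks 889 bp, which goes with 78.5, 62.7 and 30.6 control CPM per kb.

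**Figure D4:**
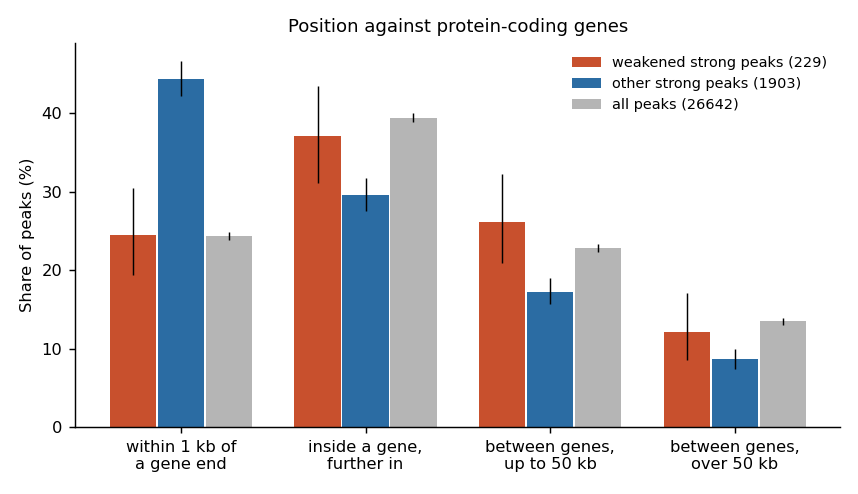
Share of peaks in percent (vertical) in 4 positions against protein-coding genes, for 229 members (red), 1903 other strong peaks (blue) and all 26642 peaks (grey), with 95% Wilson intervals as bars. The members stand at 24.5% near gene ends where the other strong peaks stand at 44.4%.

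Residual binding also varied with position. At gene ends the median member kept 61.4% and 8 of 56 (14.3%) were at or under a ratio of 0.5. Inside genes it kept 56.2% with 28 of 85 (32.9%) at or under 0.5, between genes within 50 kb 55.5% with 23 of 60 (38.3%), and farther out 57.2% with 7 of 28 (25%). PLAU, which encodes urokinase, is an example near a gene end, at 319 bp, with 100, 117 and 145 CPM in control and 46.9, 65.7 and 77.9 CPM in knockdown. Members at gene ends were also wider, with a median of 1827 bp against 1102 to 1292 bp in the other positions. Over all members the Spearman correlation of the ratio was -0.16 with distance to a gene end and 0.31 with width. Which of position and width the ratios followed was not tested. The ratios come from the contrast that chose the peaks, so the medians are descriptions.

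The members were spread over 22 autosomes, with 47 on chromosome 1, 33 on chromosome 8 (whose promoter windows were not used here), 18 on chromosome 6, 13 on chromosome 5 and 0 on X or Y. On chromosome 8, 17.9% of 184 strong peaks were members and on chromosome 19 3.53% of 170. Peaks that were not strong had a median ratio of 0.933 on chromosome 8 and 0.825 on chromosome 11, against 1.01 over all such peaks, so the level of a whole region moved with some members. Each ratio was therefore also divided by the median ratio of peaks that were not strong in a 10 Mb window centred on the member. That step was added after the values were seen. This regional ratio was 0.991 at the median member (0.658 to 1.24) and under 0.9 at 29. After division 192 of the 229 stayed at or under 0.67, 34 did not and 3 had too few peaks around them. On chromosome 8 24 of 33 stayed, on chromosome 15 6 of 11 and on chromosome 11 3 of 7. The peak at DYNC2H1 on chromosome 11 had a regional ratio of 0.658, close to its own ratio of 0.67. What part the regional shift had in these values was not tested.

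Joined at gaps of up to 50 kb, the members formed 215 loci, of which 205 held 1 member, 8 held 2 and 2 held 4. Both of the largest lay on chromosome 1. The first, chr1:39845074-39938182, held 4 members among 7 peaks, in or near TRIT1, a tRNA-modifying enzyme, MYCL and MFSD2A, a transporter of lysophospholipids, with ratios from 0.437 to 0.607. The second, chr1:39992004-40051925, held 4 among 6 peaks, of which 3 lay between MFSD2A and CAP1, a regulator of actin, and 1 inside CAP1, with ratios from 0.363 to 0.588. The lowest of these was at chr1:40002795-40004290, with 148, 164 and 232 CPM in control and 54.3, 58.3 and 74.7 CPM in knockdown. The members of the first locus at TRIT1 had 172, 187 and 249 CPM against 77.3, 90.6 and 103 CPM, and 90.0, 97.6 and 111 CPM against 43.1, 59.9 and 66.9 CPM.

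Those loci were part of a longer run. Joined at gaps of up to 500 kb, 16 members lay on 1883 kb of chromosome 1, chr1:39845074-41727989, from TRIT1 over SMAP2, an Arf regulator, RIMS3, NFYC, a subunit of the NF-Y factor, and SCMH1, a Polycomb gene, to HIVEP3. Their ratios ran from 0.28 near RIMS3, where control libraries had 108, 126 and 170 CPM and knockdown libraries 29.1, 36 and 49.7 CPM, to 0.659 in SMAP2. The stretch was dense in strong sites, with 59 strong among 96 peaks (61.5%) and a median control level over all its peaks of 101 CPM. The other strong peaks in it, which lie above a ratio of 0.67 by the rule, had a median ratio of 0.884. The peaks that were not strong had a median ratio of 0.945, and 15 of the 96 peaks were called gained beside 45 called lost. Read density without the antibody, which the IgG samples would show, was not analysed here. A second run, chr1:160703853-161659106, held 7 members over 955 kb, from CD48 over USF1, ADAMTS4 and TOMM40L to the Fc receptor pair, with ratios from 0.131 to 0.668.

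Of genes on hematopoietic lists, few had a member. A list of phagocyte surface receptors had 13 strong peaks assigned to its genes, of which 4 were members, in or near CD48, FCGR2B, FCGR3A and ITGB2, the common chain of leukocyte integrins. The list of myeloid transcription factors had 2 members among 33 strong peaks, at CBFA2T3, a corepressor, and in TFEB, a regulator of lysosomes. CBFA2T3 had 75.5, 89.1 and 110 CPM in control and 47.2, 57.2 and 60.5 CPM in knockdown, and TFEB kept 66.9%. Signalling proteins had 2 among 18, in LCP1, which bundles actin, and near TNFAIP3, and autophagy and survival genes 2 among 11, in C15orf39 and TFEB. The place of C15orf39 in the set rested on control replicate 1, with 184 CPM against 60 to 93.3 CPM in the other controls. Its log2 fold change was -0.571 with all libraries and -0.338 without that one, and it was called lost in neither fit. The 11 strong peaks of cytokine and growth factor receptors, 9 of granule and lysosome proteins, 2 of the phagocyte oxidase, 2 of lymphoid genes and 1 of innate recognition held 0 members. Over all strong peaks 10.7% were members, and no list was tested.

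Around the members, other peaks were called in both directions. The 552 peaks outside the set within 50 kb, of which 86 were strong, had a median log2 fold change of -0.11, against -0.02 over all peaks outside the set, and 141 (25.5%) were called lost and 102 (18.5%) gained, against 20% and 21.5%. Among the 42 nearest, within 2 kb, 15 (35.7%) were lost and 0 gained. From 2 to 10 kb 35 of 112 were lost and 22 gained, from 10 to 25 kb 42 of 162 and 36, and from 25 to 50 kb 49 of 236 and 44. Members had a median of 2 peaks within 50 kb and at most 13, at NFYC, and 40 had no other peak there. Another member stood within 50 kb of 24, a lost peak outside the set beside 108, and a gained one beside 81.

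**Figure D5:**
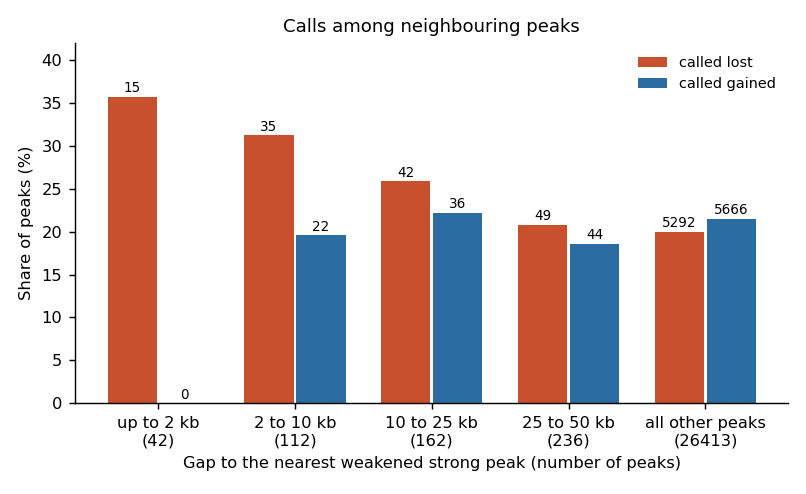
Share of peaks outside the set called lost (red) and gained (blue), in percent (vertical), by the gap to the nearest member (horizontal), with the number of calls on each bar and the number of peaks in brackets. Lost calls go from 35.7% within 2 kb to 20.8% at 25 to 50 kb, and gained calls are at 0 within 2 kb.

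The sharpest contrast between neighbours was in CTIF, which encodes a translation factor. A member in the gene, chr18:48784782-48786009, had a mean of 86.2 CPM in control and 28.4 CPM in knockdown. A peak 33755 bp from it, chr18:48749856-48751027, went the other way, from 13.5, 21.2 and 28.2 CPM to 93.1, 107 and 119 CPM, a ratio of 5.0. Every knockdown library there was above every control library. A peak near GRIN3A, 7333 bp from a member, rose as well, from 1.59, 3.60 and 8.51 CPM to 6.39, 13.6 and 18.3 CPM, with overlapping groups and few reads. The neighbours share the contrast of the rule and their libraries, so these are descriptions.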

How the data were processed

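RUNX1 ChIP-seq libraries of THP-1 cells were grouped by the genotype and batch in the labels. Per the study's methods and processing notes, the authors aligned reads with bowtie2, removed duplicates, ran MACS2 for each condition in each batch, kept peaks reproducible between batches, merged them and counted reads with featureCounts, with versions not given in the sources used here. The deposited table holds raw, unnormalized counts for each merged peak. It also gives, as deposited, peak width in bp (other information), used for levels per kb. The libraries compared are those that gave the peaks, and depth outside peaks was not used here. The notes name GRCm38 and GRCh38; 24.4% of peaks lay within 1 kb of a gene end of RefSeq GRCh38.p14, against 5.48% to 7.58% after shifts, so GRCh38 was used.

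CPM is the count scaled to 1000000 in-peak reads of the library. The members and gene lists were chosen with earlier results of these data known. The counts were fitted with DESeq2 1.42.0 (R 4.3.3), with batch added here as a covariate, since batch 2 held more knockdown than control libraries, and calls required an adjusted p (Benjamini-Hochberg) under 0.05 with a fold over 1.1, the thresholds of the methods. Alternatives were edgeR 4.0.16 (quasi-likelihood test), TMM factors, no batch, a replicate block, other limits and windows, and leaving out each library. The code of the fits was run on simulated counts, with the same dispersion for all peaks and few changed peaks, unlike these data. That run checked the code and not the error rates of the calls here. Peaks were assigned to the nearest protein-coding gene of the RefSeq table, which gives no exons, so introns and exons are not named. Named peaks were the 8 lowest ratios, the 8 highest control levels, up to 3 per gene list, loci with several members, those next to the limits and the 2 with the smallest p for the product of genotype and batch (CPXM2 and GATAD2B). All others were named after their values were seen: the neighbours, promoters, miRNA, SPI1, MYC and other immune gene sites, and the peaks read in batch 2. No duplicate libraries were found (chi-square per degree of freedom 1.29 to 2.24 between libraries of a group). No genome sequence was used, so motifs were sought in promoter windows only.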

Additional observations from a re-analysis of the deposited data

Results flagged for a closer look

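Among 76 groups of 6 libraries, from the 37 named peaks and the members' summed share of reads in each genotype, 5 had 1 library far from the other 5, where chance alone would give about 3.8. Control replicate 1 stood apart at 3 of them: at C15orf39 it had 184 CPM against 60 to 93.3 CPM in the other controls, at FCGR2B 143 CPM against 211 to 239 CPM, and at DDX46 50.7 CPM against 77.7 to 93.8 CPM. Control replicate 4 stood apart at GATAD2B, with 63.5 CPM against 85.1 to 95.1 CPM, and at chr1:40002795-40004290 near MFSD2A, with 232 CPM against 148 to 167 CPM.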

How the results depend on the processing

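The number of members depended on the limits: a control limit of 60 CPM gave 533, one of 100 CPM gave 99, and a ratio limit of 0.5 gave 66, while other scalings, batch means and leaving out each library gave 218 to 249, and division by the regional ratio, added after the values were seen, gave 219, of which 192 were members. Residual binding was a ratio of 0.569 in batch 1 alone against 0.58. Within 5 kb of a gene end lay 37.1% of members, and 32.8% lay within 1 kb of an end of any gene. Neighbours within 10 kb had a median log2 fold change of -0.16. Peaks chosen on batch 2 and called lost in batch 1 ranged from 34 to 129 when a batch 1 library was left out and were 203 with edgeR, and those chosen on batch 1 and called in batch 2 ranged from 162 to 186 and were 229 with edgeR. With edgeR more of the other strong peaks were called lost as well. In batch 1 these were 213 of 1809 (11.8%), against 43 (2.38%) with DESeq2. In batch 2 they were 297 of 1993 (14.9%), against 170 (8.53%). Leaving out a control library of batch 1 gave 7 to 48 of the 1809. Leaving out a library of batch 2 gave 85 to 167 of the 1993. The causes were not tested. Members called lost numbered 229 with edgeR, 225 of the 228 with at least 10 counts in every library, and 225 to 228 with 1 library left out. The rule used the same contrast, so these counts are descriptions. The main fit called 20.7% of all peaks lost, and the shares in these other fits are not given here. Shared replicate numbers did not pair the samples (correlations of deviations -0.059 to 0.173, 1 of 6 over 0.1, 2 of 6 best matched by their own number), and with the number as a replicate block 226 members were called. Of 555 refits of 37 named peaks, 553 kept their direction and side of the threshold, and C15orf39 was newly called with edgeR and without control replicate 2. In knockdown, a member with 4 reads in a library carries large counting error.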
